A study of Mus musculus with 4 samples.

Results

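Mitochondrial ribosomal protein genes were examined in CD8+ T cells recovered from mice with and without a microbiota. These genes, and the gene lists compared with them, were chosen for study with earlier results of these data known. Within the family, genes were taken by symbol alone. The rule kept every row of the count table whose symbol began with Mrpl or Mrps followed by a number. Names ending in -ps were left out. The rule found 77 genes among the 24062 in the table, of which 48 were named for the large subunit (Mrpl) and 29 for the small subunit (Mrps). The cells were gBT-I T cells, which carry a transgenic T-cell receptor for the gB498-505 peptide of herpes simplex virus. Spleen cells of gBT-I mice kept under specific-pathogen-free (SPF) conditions had been activated in culture with the peptide, with LPS and with IL-1. They were then injected into C57BL/6 recipients that were either SPF or germ-free (GF), and gBT-I cells were sorted from the recipients' spleens 7 days after transfer. All 4 libraries therefore held cells of SPF donors with the same receptor, and the recipient is the difference that the labels give. There were 2 libraries for each kind of recipient, and the labels give neither the age of the mice nor whether the 2 came from separate mice. The p-values below measure only the spread between these libraries, which may be technical.

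The mitochondrial ribosome translates the few messenger RNAs encoded by mitochondrial DNA, which specify core subunits of the respiratory chain and of ATP synthase. Its ribosomal RNAs are made in the mitochondrion, but its proteins are encoded in the nucleus, made in the cytosol and imported. Activated T cells build mitochondria as they grow and divide, and blocking mitochondrial translation impairs their function. Some of these proteins descend from bacterial ribosomal proteins, and others were added to the ribosome during the evolution of mitochondria.

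Total counts ran from 11544960 in SPF replicate 1 to 14431533 in GF replicate 2. Transcripts of the CD8 T-cell markers Cd3d, Cd3e, Cd3g, Cd8a, Cd8b1 and Cd2 were present in every library, with a summed level of 3203 to 4564 CPM (counts scaled to a common library total). The erythroid markers Hbb-b1 and Hba-a1 were at 0. B-cell markers summed to 80.3 and 99.9 CPM in the libraries numbered 1, and to 25.7 and 28.3 CPM in those numbered 2. Resemblance between libraries did not follow the recipient alone. Over the 77 genes, a chi-square test of counts gave 12.8 per degree of freedom between the SPF libraries and 4.56 between the GF libraries. Counts were scaled to each library's sum over the genes compared, so a level shared by all of them was left out. The closest pair was SPF replicate 2 with GF replicate 2, at 2.39. By this measure GF replicate 1 was nearer to GF replicate 2 than to SPF replicate 2 (6.45) or SPF replicate 1 (11.1). Over all genes it was nearer to SPF replicate 2 (29.5) than to GF replicate 2 (43.9). In level over the 77 genes it also stood nearer to SPF replicate 2. These genes summed to 2927 CPM in GF replicate 1, 2581 in SPF replicate 2 and 2204 in GF replicate 2.

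The start regions of 5 of the genes are shown because the printed stretch of each holds a pair of short motifs that are associated with nuclear genes for mitochondrial proteins. The motifs searched were a core of the NRF1 site (GCATGCGC), a core of the ETS site bound by GABP (CCGGAAG), and a core of the YY1 site (AAGATGGC). Each was sought on both strands between 250 bases before and 50 bases after the annotated start, and none of the 3 contains another. The sequences come from RefSeq on GRCm38.p6, cover 220 bases before the start to 30 bases from it, and read along the gene's own strand, with motif matches in capitals. Mrpl33 (chr5:31613731-31613980, plus strand) and Mrpl22 (chr11:58171444-58171693, plus strand) hold an NRF1 core and an ETS core. Mrps12 (chr7:28741792-28742041, minus strand), Mrps27 (chr13:99344566-99344815, plus strand) and Mrps18a (chr17:46110784-46111033, plus strand) hold a YY1 core and an ETS core. Mrpl17, Mrpl32 and Mrps18b also had a pair in the searched window, but not within the stretch of this length, and are not printed.
Mrpl33: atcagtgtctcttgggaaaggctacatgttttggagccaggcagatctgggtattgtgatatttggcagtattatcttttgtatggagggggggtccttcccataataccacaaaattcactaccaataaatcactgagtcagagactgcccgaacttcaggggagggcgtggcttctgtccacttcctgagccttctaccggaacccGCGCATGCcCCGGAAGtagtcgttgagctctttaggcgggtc
Mrps12: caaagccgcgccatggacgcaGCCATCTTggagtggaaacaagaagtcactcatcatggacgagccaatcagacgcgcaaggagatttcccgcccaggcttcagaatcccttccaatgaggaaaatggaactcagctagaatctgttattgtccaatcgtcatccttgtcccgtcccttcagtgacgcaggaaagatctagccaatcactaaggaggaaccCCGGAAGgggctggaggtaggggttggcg
Mrpl22: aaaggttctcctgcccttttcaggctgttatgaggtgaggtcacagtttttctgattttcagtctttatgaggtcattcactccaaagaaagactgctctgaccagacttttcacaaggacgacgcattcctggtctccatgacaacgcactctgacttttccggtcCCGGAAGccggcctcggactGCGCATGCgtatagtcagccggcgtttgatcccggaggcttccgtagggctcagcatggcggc
Mrps27: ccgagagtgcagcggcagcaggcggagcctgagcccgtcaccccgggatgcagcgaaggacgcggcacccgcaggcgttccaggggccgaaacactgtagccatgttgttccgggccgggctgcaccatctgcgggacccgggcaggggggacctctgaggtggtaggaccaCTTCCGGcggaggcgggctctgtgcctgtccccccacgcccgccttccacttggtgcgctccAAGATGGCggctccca
Mrps18a: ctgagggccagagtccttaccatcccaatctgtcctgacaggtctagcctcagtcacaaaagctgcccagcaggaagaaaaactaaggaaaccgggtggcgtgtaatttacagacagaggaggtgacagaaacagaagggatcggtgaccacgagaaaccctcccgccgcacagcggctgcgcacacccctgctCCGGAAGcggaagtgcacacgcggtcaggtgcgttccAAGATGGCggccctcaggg
RefSeq start regions were matched for 68 of the 77 genes; those not matched were Mrpl4, Mrpl13, Mrpl15, Mrpl19, Mrpl38, Mrpl54, Mrps28, Mrps34 and Mrps35. At least 1 of the motifs stood in 37 of the 68 (54.4%), against 30.8% of the start regions of genes tested here and 14.9% of all RefSeq start regions. The ETS core stood in 25 (36.8%, against 21.9% of tested genes), the YY1 core in 12 (17.6%, against 5.81%) and the NRF1 core in 8 (11.8%, against 6.51%). Large and small subunit genes held any motif about equally often, with 23 of 42 (54.8%) and 14 of 26 (53.8%). The shares of single motifs were less alike. The NRF1 core stood in 7 large (16.7%) and 1 small (3.85%) subunit genes, and the ETS core in 14 (33.3%) and 11 (42.3%). The YY1 core stood in 6 large (14.3%) and 6 small (23.1%) subunit genes, and none of these differences was tested. The median log2 fold change between GF and SPF recipients, described below, was -0.44 for genes with a motif and -0.47 for genes without. A match is a description of letters in the window and was not tested as a binding site.

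All 77 genes had a lower mean level in cells from GF recipients than in cells from SPF recipients, or 62 of them once a trend with transcript length was removed, and none passed the test. The median log2 fold change, GF over SPF, was -0.44 with an interquartile range of -0.61 to -0.30, while the median over all 11271 genes tested was 0.00 (-0.004). Fold changes were fitted with edgeR's quasi-likelihood model, and p-values were adjusted by the Benjamini-Hochberg method over all genes tested. Below an adjusted p of 0.05 there were 0 of 77 members, with adjusted p from 0.855 to 0.973, against 0.0% of all genes (0 of 11271). At an unadjusted p under 0.05, 245 genes were higher and 118 lower in GF, and DESeq2 called 8 genes higher and 1 lower, none of them a member. Of the members, 3 had an unadjusted p under 0.05, all lower, while 1.05% of all tested genes were lower at that level. A fitted value below 0 was found for 50.3% of all genes. Since 2 libraries were compared with 2, an exact permutation test of a single gene could not go below p = 0.33. In bulk RNA, fewer cells of a type and less RNA per cell cannot be told apart.

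The libraries of the groups overlapped for most of these genes. Each GF library lay under each SPF library for 16 members (20.8%), against 16.4% of all tested genes, and both lay above for none. SPF replicate 1 was the highest library for 76 of the 77, against 38.3% of all genes; Mrps5 was the exception, with SPF replicate 2 highest. GF replicate 2 was the lowest for 71, against 31.3% of all genes. The libraries ranked SPF replicate 1, GF replicate 1, SPF replicate 2, GF replicate 2 from high to low for 59 members (76.6%), an order shared by 17.7% of all genes.

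**Figure D1:**
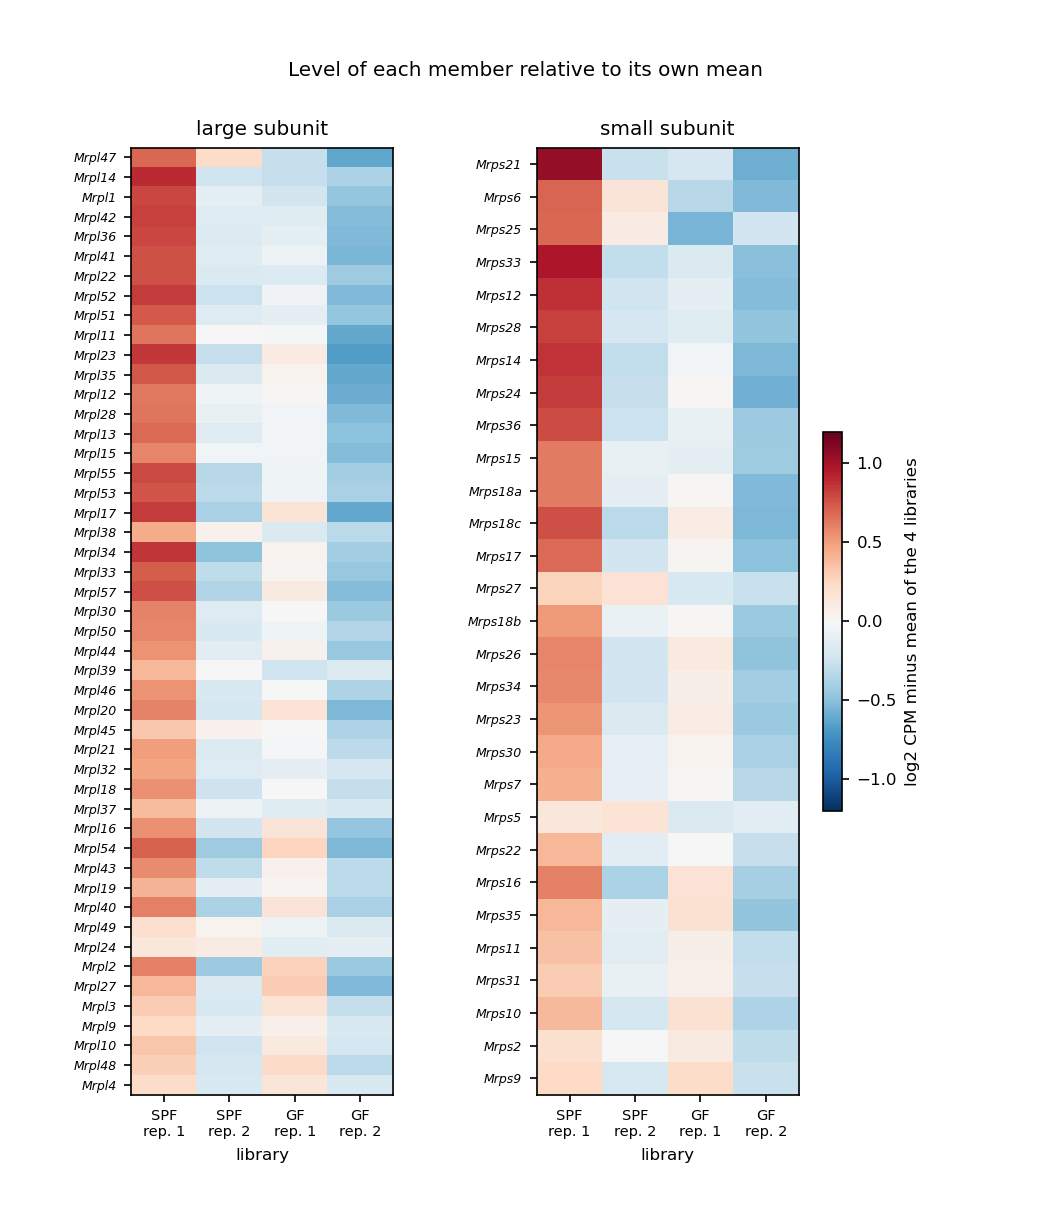
Level of each of the 77 genes in each of the 4 libraries, as log2 CPM minus the gene's mean over the libraries, with a column for each library and large and small subunit genes in separate panels. SPF replicate 1 is the highest library for 76 genes, and GF replicate 1 lies above SPF replicate 2 for 61.

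The order was the same for the summed levels, so the SPF and GF ranges overlapped. Large subunit genes summed to 2716 and 1653 CPM in SPF replicates 1 and 2, and to 1873 and 1428 CPM in GF replicates 1 and 2. Small subunit genes summed to 1570 and 928 CPM in the SPF libraries, and to 1054 and 776 CPM in the GF libraries. The means were 2184 ± 751 and 1651 ± 315 CPM (SD, n = 2 each) for the large subunit, and 1249 ± 454 and 915.0 ± 196 CPM for the small subunit. For both subunits the difference of the means was smaller than the SD of the SPF libraries.

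**Figure D2:**
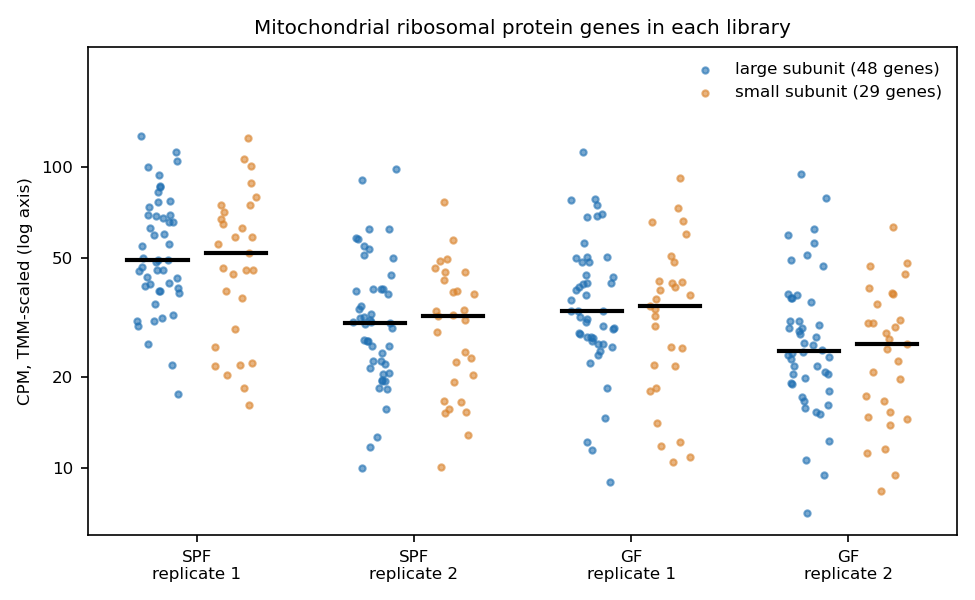
Level in CPM (log axis) of every large (blue) and small (orange) subunit gene in each library, with a bar at the median. The median large subunit gene stands at 49.1 and 30.4 CPM in the SPF libraries and at 33.2 and 24.4 CPM in the GF libraries.

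Pairs of libraries with the same replicate number gave the same direction with unequal size. Between the libraries numbered 1, the median log2 difference, GF minus SPF, was -0.58, and all 77 genes were lower in GF. Between those numbered 2 it was -0.24, and 75 genes were lower, the exceptions being Mrpl10 and Mrpl34. Across the numbers the comparisons went opposite ways: GF replicate 1 exceeded SPF replicate 2 in 61 genes, with a median log2 difference of 0.15, while the 77 genes summed to 2204 CPM in GF replicate 2 and to 4286 CPM in SPF replicate 1. The distance between libraries of the same recipient was as large, with medians of -0.73 for SPF replicate 2 minus SPF replicate 1 and -0.41 for GF replicate 2 minus GF replicate 1.

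A single library moved the result. Without SPF replicate 2, edgeR called 32 members lower (20 large, 12 small), where 4.70% of all tested genes were called lower. Without SPF replicate 1, edgeR called none, only 43 of the 77 had a lower fitted value in GF, and the median log2 fold change was -0.01 for either subunit. Without GF replicate 1 all 77 stayed lower, without GF replicate 2 this held for 66, and edgeR called none in either case. In these fits the lone library of a group was assumed to vary like the other group.

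Among large subunit genes, proteins of the stalks spanned most of the range of fitted values. The L7/L12-type stalk, where translation factors dock, is formed by Mrpl12 held by Mrpl10, with Mrpl11 at its base. Mrpl12 stood at 85.7 and 53.3 CPM in the SPF libraries and at 55.9 and 36.7 CPM in the GF libraries (log2 fold change -0.58, SE 0.34). Mrpl11 stood at 39.7 and 25.5 CPM in SPF and at 25.2 and 16.7 CPM in GF (-0.64, SE 0.34). The groups did not overlap for Mrpl11, though GF replicate 1 and SPF replicate 2 were nearly equal, and they did overlap for Mrpl12. Mrpl10 stood at 86.6 and 58.0 CPM in SPF and at 74.5 and 59.4 CPM in GF, with a log2 fold change of -0.11 (SE 0.28), and its lowest library was an SPF one. Mrpl1, of the opposite stalk that helps spent tRNAs leave, stood at 29.7 and 15.7 CPM in SPF and at 14.6 and 12.3 CPM in GF (-0.75, SE 0.38).

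Genes for proteins around the peptidyl transferase centre had fitted values between -0.33 and -0.04. Mrpl2, Mrpl3, Mrpl4, Mrpl16 and Mrpl27 are homologues of bacterial proteins at or near the catalytic centre and the start of the exit tunnel. Mrpl4 stood at 82.3 and 62.2 CPM in SPF and at 78.1 and 62.0 CPM in GF, with a log2 fold change of -0.04 (SE 0.25), the value closest to 0 in the large subunit. Mrpl2 stood at 45.6 and 22.1 CPM in SPF and at 36.2 and 21.9 CPM in GF (-0.22, SE 0.44). For both genes the libraries within a group lay further apart than the group means. The values for Mrpl3, Mrpl16 and Mrpl27 were -0.13, -0.33 and -0.19, with overlapping groups.

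At the mouth of the exit tunnel sit Mrpl23, Mrpl45, Mrpl17 and Mrpl47, which is the homologue of bacterial L29. Mrpl45 is known in mammals to anchor the ribosome to the inner membrane. Mrpl47 (chr3:32725397-32737605, minus strand, mm10, 7 exons) stood at 17.6 and 12.7 CPM in SPF and at 9.02 and 7.08 CPM in GF. Each GF library lay under each SPF library, with a log2 fold change of -0.91 (SE 0.32, unadjusted p = 0.0327). Exons of Actl6a and Ndufb5 overlap 18.1% of its exonic length, and whether the counting used strand is not given. Mrpl45 stood at 30.7 and 25.5 CPM in SPF and at 24.5 and 19.0 CPM in GF, also without overlap (-0.37, SE 0.26). Mrpl23 (-0.62, SE 0.46) and Mrpl17 (-0.52, SE 0.49) overlapped between groups, and Mrpl23 has annotated pseudogenes that could share its reads.

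The proteins without a bacterial counterpart lie mostly on the surface of the subunit. Mrpl38 stood at 41.3 and 31.6 CPM in SPF and at 27.0 and 24.3 CPM in GF, a difference with no overlap (-0.51, SE 0.25). Mrpl37 (69.4 and 51.1 against 48.3 and 46.9 CPM) and Mrpl39 (40.3 and 30.6 against 25.9 and 27.3 CPM) were also free of overlap, at -0.34 (SE 0.23) and -0.41 (SE 0.24). Mrpl42 stood at 62.5 and 31.6 CPM in SPF and at 31.8 and 24.6 CPM in GF, so GF replicate 1 and SPF replicate 2 were level (-0.74, SE 0.38). Mrpl44, which has an RNase III-like fold and is mutated in a human cardiomyopathy, had a value of -0.42 (SE 0.33). The 46 members listed with a bacterial counterpart had a median log2 value of -0.50, and the 31 others had -0.41. With a trend with transcript length removed, these medians were -0.20 and -0.18. Mrps18c was listed among the 46, while its paralogues Mrps18a and Mrps18b, and also Mrps36, were counted with the 31.

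In the small subunit, Mrps12 is the homologue of the bacterial protein S12 of the decoding centre, which monitors codon and anticodon pairing. Mrps12 (chr7:28739641-28741820, minus strand, 2 exons) stood at 44.1 and 20.3 CPM in SPF and at 22.1 and 16.7 CPM in GF. GF replicate 1 lay above SPF replicate 2, and the log2 fold change was -0.73 (SE 0.42). Mrps5, whose bacterial homologue lines the messenger RNA entry, stood at close values in the SPF libraries, 45.3 and 46.1 CPM (45.7 ± 0.564, SD, n = 2). Its GF libraries stood at 36.4 and 37.7 CPM (37.1 ± 0.924, SD, n = 2), below both SPF libraries (-0.30, SE 0.20). Mrps27, a protein with pentatricopeptide repeats, stood at 16.2 and 15.3 CPM in SPF and at 11.9 and 11.2 CPM in GF, also without overlap (-0.45, SE 0.25). Exons of 6430562O15Rik overlap 22.6% of its exonic length.

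Mrps6, whose bacterial homologue S6 sits on the platform, stood at 22.3 and 15.3 CPM in SPF and at 10.9 and 9.52 CPM in GF (-0.88, SE 0.30, unadjusted p = 0.0323). Mrps25, a mitochondria-specific protein, stood at 29.0 and 19.3 CPM in SPF and at 12.2 and 15.3 CPM in GF (-0.81, SE 0.31, unadjusted p = 0.0458). In both genes the GF libraries lay below the SPF libraries. Both share exonic sequence with a neighbour, since Nr2c2 overlaps 58.2% of the exonic length of Mrps25, and Slc5a3 overlaps 18.8% of that of Mrps6. The lowest fitted value of all members was that of Mrps21, at -0.92 (SE 0.47), from 70.8 and 28.3 CPM in SPF and 29.6 and 22.8 CPM in GF. It was -0.35 with the length trend removed, where Mrps25 was lowest at -1.09, and -0.11 without SPF replicate 1. Mrps33 was similar, at 74.5 and 31.0 against 33.7 and 26.8 CPM (-0.80, SE 0.45), and in both of these genes GF replicate 1 lay above SPF replicate 2. Mrps15, whose bacterial homologue S15 contacts the large subunit, stood at 62.8 and 38.4 CPM in SPF and at 37.6 and 30.3 CPM in GF, just without overlap (-0.57, SE 0.31).

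At the other end, Mrps9, homologous to a bacterial protein of the subunit's head, stood at 67.0 and 49.5 CPM in SPF and at 66.2 and 46.9 CPM in GF (-0.04, SE 0.28). Mrps2, Mrps7, Mrps16, Mrps22 and Mrps34 had values between -0.38 and -0.19 with overlapping groups. The paralogues Mrps18a, Mrps18b and Mrps18c descend from one bacterial protein, and structures place the product of Mrps18a in the large subunit. Their log2 fold changes were -0.53 (SE 0.35), -0.44 (SE 0.30) and -0.52 (SE 0.44), closer to each other than their errors. Mrps30 (-0.36, SE 0.29) is also found in the large subunit. Mrps36 (-0.61, SE 0.40) is now known as a component of the 2-oxoglutarate dehydrogenase complex, and it has annotated pseudogenes. Mrps28 had a value of -0.69 (SE 0.42).

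**Figure D3:**
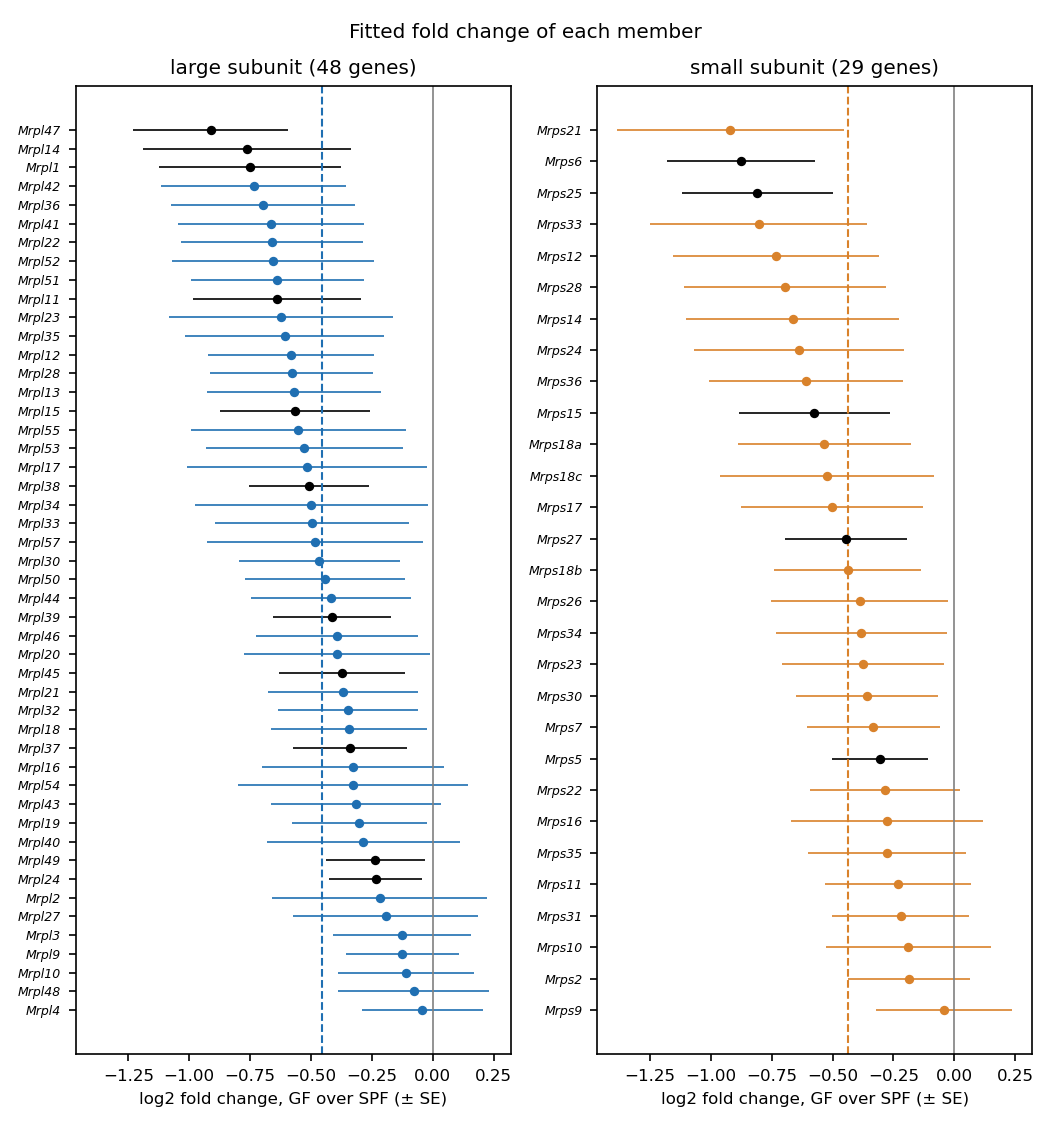
Fitted log2 fold change, GF over SPF, of each gene with its standard error, by subunit. Black points are the 16 genes with each GF library under each SPF library, and the dashed lines mark the medians of -0.46 (large) and -0.44 (small).

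Large and small subunit genes had nearly the same median difference between recipients, and no test of the subunits against each other was made. The median log2 fold change was -0.46 over the 48 large subunit genes (-0.59 to -0.33, interquartile range) and -0.44 over the 29 small subunit genes (-0.64 to -0.28). The difference of the medians, large minus small, was -0.018. Each GF library lay under each SPF library in 11 of 48 large (22.9%) and 5 of 29 small (17.2%) subunit genes, against 16.4% of all genes. The ratio of the summed CPM of large to small subunit genes was 1.73 and 1.78 in the SPF libraries and 1.78 and 1.84 in the GF libraries. Its means of 1.76 ± 0.037 and 1.81 ± 0.043 (SD, n = 2) differed by little more than either SD, and the groups overlapped. Counting Mrps18a and Mrps30 as large and leaving out Mrps36 gave a difference of -0.042, and over all the alternative settings it ran from -0.087 to 0.069, on both sides of 0.

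Levels between genes were compared per kilobase of annotated exonic length. Mrpl33 had the highest mean over the 4 libraries, with 149 CPM per kilobase (exonic length 478 nucleotides), followed in the large subunit by Mrpl52 with 106 and Mrpl30 with 74.4. The highest in the small subunit were Mrps21 with 76.9, Mrps24 with 63.9 and Mrps23 with 62.5 CPM per kilobase. The lowest were Mrps25 with 3.12, Mrpl47 with 3.45, Mrpl17 with 3.59 and Mrpl1 with 4.34, and in the small subunit next Mrps27 with 7.39 and Mrps35 with 8.48 CPM per kilobase. Mrps25 and Mrpl17 have annotated exonic lengths of 6073 and 7300 nucleotides, so a low value per kilobase can come with an ordinary count. The median large subunit gene stood at 42.5 and 24.2 CPM per kilobase in the SPF libraries and at 26.4 and 21.3 in the GF libraries. For the small subunit these medians were 32.9 and 18.1 in SPF, and 23.7 and 17.1 in GF.

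Differences between libraries moved with transcript length across all genes, and these are short genes. Their median exonic length was 1280 nucleotides, against 3011 for all genes tested. Over all tested genes, the median log2 fold change, GF over SPF, was -0.37 below 1000 nucleotides, -0.22 from 1000 up to 2000, -0.014 from 2000 up to 4000 and 0.19 from 4000. The members in the same length classes had medians of -0.61 (25 genes), -0.33 (29), -0.44 (13) and -0.35 (10). Across all genes with a length, Spearman's rho between length and the difference was 0.42 for GF over SPF, 0.58 for SPF replicate 2 minus SPF replicate 1 and 0.52 for GF replicate 2 minus GF replicate 1. Within the 77 members the same comparisons gave lower values of 0.29, 0.49 and 0.12, in that order. All of these are descriptions across genes, which share libraries and are not independent. When a length trend was removed from each library, 62 of the 77 stayed lower in GF, at a median (log2 fold change) of -0.20. The medians were then -0.19 for the large subunit (37 of 48 lower) and -0.20 for the small subunit (25 of 29 lower), and edgeR called none.

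**Figure D4:**
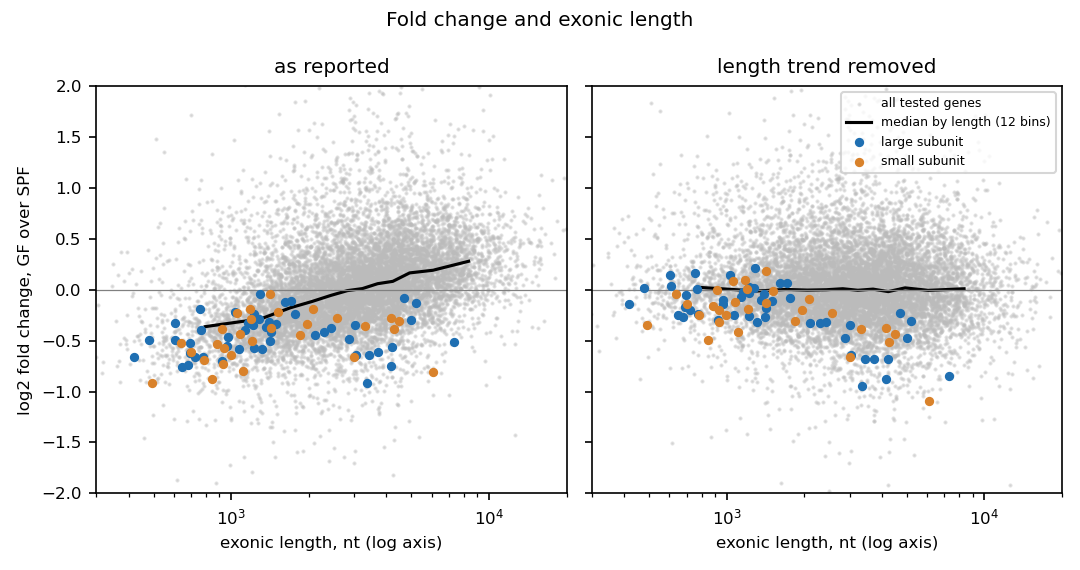
Fitted log2 fold change, GF over SPF, against annotated exonic length (log axis) for all tested genes (grey, black line at their median by length) and for the large (blue) and small (orange) subunit genes, as reported (left) and with the length trend removed (right); values beyond 2 are not shown. In the left panel the medians of all tested genes run from -0.37 below 1000 nucleotides to 0.19 from 4000.

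Cytosolic ribosomal protein genes and genes of the respiratory chain and ATP synthase, which are also short, ranked the libraries the same way. Of 80 cytosolic ribosomal protein genes tested, 77 were lower in GF, at a median (log2 fold change) of -0.43, and 2 (2.50%) had groups without overlap, both lower. The summed level of these genes exceeded that of the mitochondrial ones by a ratio of 20.3 and 20.8 in the SPF libraries and 20.2 and 21.4 in the GF libraries. Of 78 respiratory chain and ATP synthase genes tested, 74 were lower, with a median of -0.52. In 4 (5.13%) each GF library lay under each SPF library, and in 1 (1.28%) each GF library lay above. The order of libraries seen in 76.6% of the members held for 91.2% of the cytosolic and 88.5% of the respiratory chain genes. With the length trend removed, the medians were -0.02 and -0.10, against -0.20 for the members. Summed CD8 T-cell markers ranked the libraries in that order too, at 4564 and 3320 CPM in SPF and at 3842 and 3203 CPM in GF. Taken singly, Cd3d, Cd3g, Cd8b1 and Cd2 had this order, and Cd8a and Cd3e did not. Cd8a stood at 924 and 798 CPM in SPF and at 1021 and 910 CPM in GF. Cd3e stood at 450 and 339 CPM in SPF and at 393 and 366 CPM in GF. The part of the CD8 markers in the result was not tested. Summed myeloid markers stood at 473 and 810.1 CPM in SPF and at 847 and 1096 CPM in GF. Most of this was Itgax, at 377 and 697 CPM in SPF and at 762 and 972 CPM in GF, while Itgam was lowest in GF replicate 1 (75.2 CPM) and highest in GF replicate 2 (113 CPM), and Csf1r was at most 0.52 CPM. The 5 NK-cell markers, with Klra8 at 0, summed to 73.3 and 51.6 CPM in SPF and to 43.9 and 36.9 CPM in GF, with no overlap. Of the 3 CD4 and regulatory T-cell markers, Cd40lg stood at 29.97 and 28.95 CPM in SPF and at 15.1 and 20.9 CPM in GF, while Cd4 was at most 0.52 and Foxp3 at most 1.18 CPM in any library. The part of these markers in the result, and that of the B-cell markers given above, was not tested.

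Other genes of mitochondrial translation, grouped by role, contained no gene below an adjusted p of 0.05. The 6 further proteins of the ribosome with other symbols were all lower in GF, at a median (log2 fold change) of -0.48. Dap3, a GTP-binding protein of the small subunit, stood at 89.8 and 67.4 CPM in SPF and at 61.6 and 58.1 CPM in GF, without overlap (-0.39, SE 0.23). Gadd45gip1, a large subunit protein at the tunnel exit, and Chchd1 of the small subunit overlapped between groups, at -0.56 (SE 0.32) and -0.71 (SE 0.44).

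Of 26 genes for assembly of the ribosome, 24 were lower in GF, with a median of -0.28, and 11 (42.3%, against 16.4% of all genes) had each GF library under each SPF library. Mtg2, a GTPase of large subunit assembly, stood at 42.3 and 41.3 CPM in SPF and at 29.1 and 30.7 CPM in GF (-0.48, SE 0.20). Fastkd2, an RNA-binding protein needed for the large subunit, stood at 28.6 and 32.9 CPM in SPF and at 20.1 and 22.7 CPM in GF (-0.52, SE 0.23). In both genes the libraries of a group were closer to each other than to the other group. Rnmtl1, now called Mrm3, methylates the large ribosomal RNA and had a value of -0.56 (SE 0.36).

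Of 15 translation factors, 11 were lower and 4 higher, with a median of -0.11. Mrrf, which recycles ribosomes after termination, stood at 17.7 and 12.7 CPM in SPF and at 5.81 and 7.87 CPM in GF (-1.15, SE 0.33, unadjusted p = 0.0166). Pdf, which removes the formyl group from new proteins, stood at 46.0 and 31.6 CPM in SPF and at 18.2 and 22.9 CPM in GF (-0.92, SE 0.29, unadjusted p = 0.0230). 2810006K23Rik stood at 13.6 and 9.11 CPM in SPF and at 6.28 and 5.87 CPM in GF (-0.90, SE 0.33, unadjusted p = 0.0407). All 3 had each GF library under each SPF library.

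Of 20 aminoacyl-tRNA synthetases of mitochondria, 12 were lower and 8 higher, with a median of -0.05. Ears2, which charges glutamate tRNA, had a value of -0.54, and Vars2, which charges valine tRNA, had 0.46 (SE 0.25). Vars2 stood at 27.5 and 38.6 CPM in SPF and at 42.6 and 48.3 CPM in GF, so both GF libraries were above. Of 18 genes for maintenance and expression of mitochondrial DNA, 13 were lower, with a median of -0.26, among them Trmt10c (-0.51), Mgme1 (-0.57) and Mterf1b (-0.66). Of 9 tested regulators of nuclear genes for mitochondria, 5 were lower and 4 higher, with a median of -0.04. Yy1 had a value of -0.22, Gabpb2 had 0.47 (SE 0.40) and Ppargc1b, a coactivator, had 0.51 (SE 0.41), each with overlapping groups. With the length trend removed, the medians were -0.29 for the 6 further ribosomal proteins (6 lower), -0.14 for the assembly genes (17 lower) and -0.10 for the translation factors (9 lower). They were -0.03 for the synthetases (12 lower), -0.22 for mitochondrial DNA (13 lower) and -0.15 for the regulators (6 lower).

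**Figure D5:**
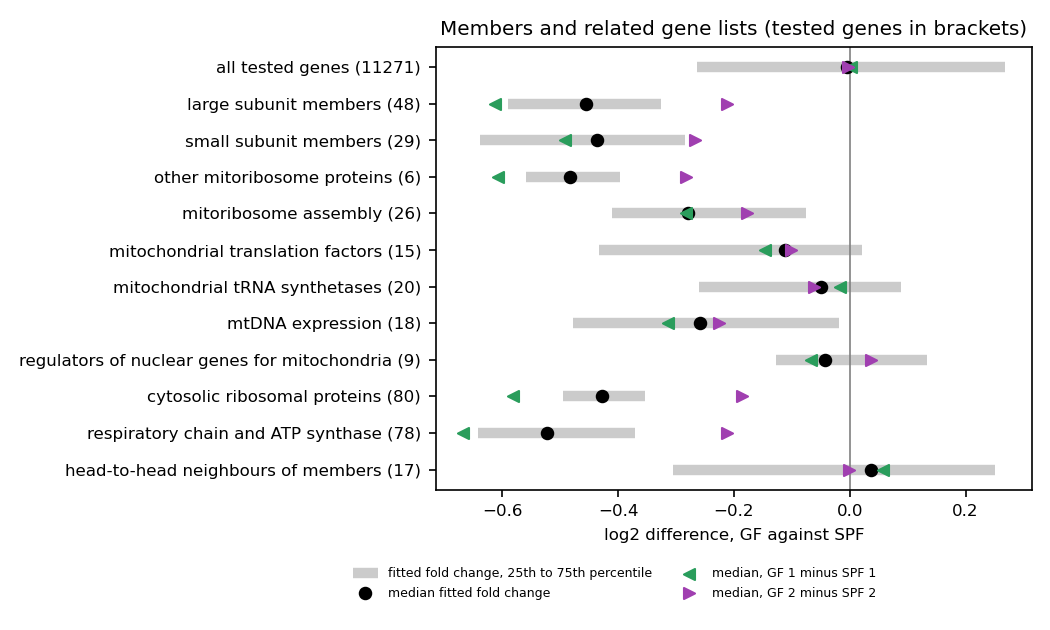
Log2 difference, GF against SPF, in each list: the median fitted fold change (circle), its interquartile range (bar) and the median difference between libraries numbered 1 and numbered 2 (triangles). Median fitted values run from -0.52 for the respiratory chain and ATP synthase to 0.04 for the divergent neighbours described next.

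Several members share their start region with a gene transcribed the other way. For 18 members (23.4%) a divergent protein-coding gene started upstream within 1000 nucleotides, against 7.0% of 20462 protein-coding genes. Those 20462 were tested and untested genes alike, whereas all members were tested. Genes that overlap at their starts were not counted in either share, as with Mrpl46 and Mrps11 on opposite strands of chromosome 7. Of the 17 neighbours tested, 8 were lower and 9 higher in GF, at a median (log2 fold change) of 0.04, while the members beside them had a median of -0.44. The member had the lower value in 15 of the 17 pairs. Sars2, the mitochondrial seryl-tRNA synthetase gene whose start lies 172 nucleotides from that of Mrps12, stood at 24.1 and 25.2 CPM in SPF and at 29.3 and 25.1 CPM in GF (0.14). The stretch printed above for Mrps12 covers the sequence between these starts. Ncapd2, a condensin gene that starts 100 nucleotides from Mrpl51, stood at 39.8 and 66.6 CPM in SPF and at 56.8 and 80.8 CPM in GF (0.37), and Mrpl51 had -0.64. Fau, which encodes a cytosolic ribosomal protein and starts 59 nucleotides from Mrpl49, had a value of -0.51. The neighbours' median exonic length was 2377 nucleotides, and with the length trend removed their median log2 fold change was 0.12, with 7 of 17 lower.

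Shared exonic sequence touched 16 members. Without them, 61 of 61 remaining members had a lower mean in GF, at a median (log2 fold change) of -0.49, and each GF library lay under each SPF library in 10 (16.4%), the same share as over all genes. The 3 members with an unadjusted p under 0.05 are all among those with shared sequence.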

How the data were processed

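The deposited table held raw read counts per gene symbol for 4 RNA libraries, 2 from SPF and 2 from GF recipients, prepared with a TruSeq RNA kit and read on a GAIIx, per the labels' protocols. The submitters' processing notes name CASAVA, TopHat, Picard, featureCounts, Subread, edgeR and the mm10 build; versions, settings and the annotation behind the counts were not given in the sources at hand. Total counts per library ran from 11544960 to 14431533.

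Genes with low counts were removed with edgeR's filterByExpr, which kept 11271 of 15353 genes with a count and all 77 members, whose counts ran from 99 to 1642 per library. Libraries were scaled by TMM, and GF was compared with SPF by edgeR's quasi-likelihood test (edgeR 4.0.16, limma 3.58.1, R 4.3.3), with Benjamini-Hochberg adjustment over all tested genes and a threshold of 0.05. Levels are TMM-scaled CPM; marker sums use plain library totals. The SE of a fitted log2 fold change is its absolute value divided by the square root of the test's F statistic. Log2 differences between single libraries use log2 CPM with a prior count of 2. The test was also run on simulated counts. These had larger changes and a smaller spread between libraries than the real data, and no shared deviation of same-numbered libraries. That run therefore does not show how the test performs on these genes. Exons, coordinates and overlaps came from GENCODE M21 on GRCm38, the assembly of mm10, and start regions from RefSeq on GRCm38.p6. A length was found for 11194 of the tested genes (99.3%). Length trends were removed with lowess curves (span 0.3) fitted to each library.

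The genes named were the 5 of each subunit with the smallest unadjusted p, the 3 highest and lowest of each subunit per kilobase, a panel with known roles, members called by any fit with all 4 libraries, and the 3 smallest p of each related list, of which 1 gene is not reported here. The members and gene lists were chosen with earlier results of these data known. Alternatives were other scalings, no filter, DESeq2 1.42.0, a replicate block, removal of length and GC trends, leaving out each library, and assigning subunits by known place.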

Additional observations from a re-analysis of the deposited data

How the results depend on the processing

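All 77 members kept a lower value in GF under DESeq2 size factors, plain library totals, no filter on low counts and the DESeq2 test, and none of these called a member; the DESeq2 test called 9 genes in all. The labels do not say that a replicate number marks a shared animal, day or batch. Deviations from the group means correlated between same-numbered libraries (r = 0.71 over all genes, 0.46 over the members). A replicate block on the number called 1206 genes, 786 higher and 420 lower (3.73% of all tested genes lower). It called 20 of the 77 members, all lower (12 large, 8 small): Mrpl1, Mrpl11, Mrpl12, Mrpl15, Mrpl23, Mrpl28, Mrpl36, Mrpl41, Mrpl42, Mrpl47, Mrpl51, Mrpl52, Mrps6, Mrps12, Mrps14, Mrps15, Mrps21, Mrps24, Mrps25 and Mrps33. The replicate block with the length trend removed called 519 genes, 346 higher and 173 lower (1.53% lower), and 5 members, all lower (Mrpl11, Mrpl15, Mrpl17, Mrpl47 and Mrps25).

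Leaving out 1 library moved the count from 0 to 1327 genes and from 0 to 32 members, where the lone library was assumed to vary like the other group. The median log2 fold change then ran from -0.788 to -0.011 for the large and from -0.739 to -0.012 for the small subunit, with SPF replicate 1 left out giving the values nearest 0. The difference of the medians, large minus small, ran from -0.049 to 0.001 with 1 library left out. It was 0.021 with the replicate block, 0.012 with the length trend removed, 0.007 with both, 0.069 with length and GC trends removed and -0.042 with subunits assigned by known place. Without members that share exons, an alternative chosen after seeing the data, it was -0.087. The causes were not tested.

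Among the genes named in the text, the sign turned positive with the length trend removed, with that and the block, and with length and GC trends removed, in that order, for Mrps9 (0.184, 0.182, 0.194), Mrpl27 (0.165, 0.166, 0.153), Mrpl10 (0.070, 0.072, 0.034), Mrpl33 (0.020, 0.020, 0.077), Mrpl4 (0.216, 0.218, 0.047) and Mrps22 (0.008, 0.008, 0.086). It turned for Mrpl2 under the first of these and under the second (0.144 each), and for Mrpl16 (0.002) and Mrps18c (0.001) under the last. With 1 library left out, values ran from -0.313 to 0.195 for Mrps9, -1.142 to 0.037 for Mrps14, -1.10 to 0.029 for Mrps24, -0.692 to 0.020 for Mrps23, -0.675 to 0.160 for Mrpl27 and -0.377 to 0.208 for Mrpl10. They ran from -0.691 to 0.293 for Mrps16, -0.739 to 0.079 for Mrps34, -0.657 to 0.395 for Mrpl2, -0.678 to 0.110 for Mrpl16, -0.412 to 0.003 for Mrps2, -0.931 to 0.110 for Mrpl33 and -0.978 to 0.129 for Mrps18c. For Mrps35 the range was -0.641 to 0.009, for Mrpl17 -1.012 to 0.220, for Mrpl23 -1.085 to 0.042, for Mrpl4 -0.238 to 0.174, for Mrps22 -0.531 to 0.002 and for Mrpl3 -0.369 to 0.141. The lowest count of a member in any library was 99.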
